A study of Mus musculus with 6 samples.

Results

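Peaks of the bile acid receptor FXR were examined at 9 genes of the methionine and one-carbon cycles in mouse liver, namely Mat1a, Gnmt, Pemt, Nnmt, Ahcy, Bhmt, Bhmt2, Cbs and Cth. A peak was taken as a member when the authors' annotation named one of these genes as the gene with the nearest transcription start site (TSS). By this rule 38 of 20040 peaks belonged to the genes in the WT list and 17 of 12495 in the LKO list. At least 1 peak was held by 8 of the 9 genes, among 9655 genes with a peak in either list. The assignment is by distance and does not say which gene responds to FXR.

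Liver chromatin of male C57BL/6 mice was immunoprecipitated for FXR with antibody E4B8P. WT mice were Bcl6 fl/fl, with both floxed alleles and no Cre. LKO mice carried the same floxed alleles together with Alb-cre, so both groups share the floxed alleles. Alb-cre is driven by the albumin promoter and acts in hepatocytes, and the state of Bcl6 in other liver cells is not given. Each genotype had 2 ChIP libraries and 1 input library, and the labels do not give the age of the mice or say whether replicates came from separate animals. The comparison asks where FXR was bound near these genes when hepatocytes had or lacked BCL6, a transcriptional repressor. In whole liver, fewer hepatocytes and less binding per hepatocyte cannot be told apart. A list of peaks carries no RNA, so neither liver identity nor the loss of Bcl6 could be checked in these data.

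The methionine cycle makes S-adenosylmethionine (SAM), the methyl donor of the cell, and the liver is a main site of it. Methyltransferases turn SAM into S-adenosylhomocysteine, which is hydrolysed to homocysteine. Homocysteine is then either methylated back to methionine, with betaine or folate as the donor, or passed through transsulfuration to cysteine, from which glutathione and taurine are made. Taurine is joined to bile acids in mouse liver, and phosphatidylcholine made by methylation is secreted into bile. FXR binds DNA as a dimer with RXR, and its classical site is an inverted repeat of the hexamer AGGTCA with a spacer of a single base (IR1).

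Depth differed between the libraries. WT replicate 2 held 2883717 tags, against 19022618 to 22637613 in the other 3 ChIP libraries and 6935001 to 6964271 in the inputs. At the member peaks, the median of the estimated tags was 43.8 and 10.8 for the WT replicates and 34.7 and 34.3 for the LKO replicates, so the values of WT replicate 2 are the least precise. Peaks were called on the pooled replicates of a genotype, so counts of peaks and overlaps have no spread between replicates. The lists were normalized separately by the authors, so no test was run between genotypes and their values are set side by side as descriptions. An exact permutation test of 2 against 2 libraries could not go below p = 0.33.

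The sequences of 5 member peaks are shown because they carry the strongest binding of Cth, Pemt, Gnmt and Cbs in WT liver and the closest match to an FXR site, at Bhmt. The forward strand of mm10 is given 5′ to 3′ for each peak of the WT list, and capitals mark the 13 bases with the fewest mismatches to the IR1 letters AGGTCANTGACCT. Positions were chr3:157926102-157926312 for Cth, chr11:60036910-60037120 for Pemt, chr17:46735495-46735705 for Gnmt, chr17:31636640-31636850 for Cbs and chr13:93637687-93637897 for Bhmt.
Cth: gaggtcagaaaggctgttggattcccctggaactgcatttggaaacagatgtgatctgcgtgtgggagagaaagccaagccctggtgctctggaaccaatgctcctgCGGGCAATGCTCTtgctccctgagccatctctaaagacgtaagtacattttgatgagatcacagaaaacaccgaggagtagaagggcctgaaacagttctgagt
Pemt: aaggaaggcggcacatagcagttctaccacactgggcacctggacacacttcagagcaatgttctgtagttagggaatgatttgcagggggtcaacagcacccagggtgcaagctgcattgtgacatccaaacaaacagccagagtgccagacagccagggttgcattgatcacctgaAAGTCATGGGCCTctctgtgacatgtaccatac
Gnmt: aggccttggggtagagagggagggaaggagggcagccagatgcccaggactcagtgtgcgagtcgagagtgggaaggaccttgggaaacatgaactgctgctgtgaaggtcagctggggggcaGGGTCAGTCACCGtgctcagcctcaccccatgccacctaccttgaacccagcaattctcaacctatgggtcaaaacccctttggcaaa
Cbs: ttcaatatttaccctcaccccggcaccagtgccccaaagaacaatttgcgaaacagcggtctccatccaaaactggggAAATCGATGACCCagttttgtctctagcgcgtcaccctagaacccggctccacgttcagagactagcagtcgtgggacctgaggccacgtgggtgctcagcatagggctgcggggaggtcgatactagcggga
Bhmt: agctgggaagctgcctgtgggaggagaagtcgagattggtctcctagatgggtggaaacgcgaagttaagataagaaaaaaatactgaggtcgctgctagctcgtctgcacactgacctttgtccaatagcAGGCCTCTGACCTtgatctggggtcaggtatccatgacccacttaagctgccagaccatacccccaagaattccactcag

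The number of peaks differed among the members, from 0 at Bhmt2 and 2 at Ahcy to 6 in the WT list. Mat1a, Bhmt, Pemt and Nnmt had 6 WT peaks each, a number reached by 489 of 21883 protein-coding genes (2.23%). In the LKO list 6 members had 2 or more peaks, against 10.8% of protein-coding genes, and 4 had 3 or more, against 5.00%. No member had 4 or more there, a number reached by 548 protein-coding genes (2.50%). Any WT peak was held by 8 members, against 34.5% of protein-coding genes. Any LKO peak was held by 7 members, against 26.3%. These shares are over all protein-coding genes, active in liver or not, and no background of liver-expressed genes was used. In the WT list 20 of the 38 member peaks were intergenic (52.6%, against 35.3% of all WT peaks) and 12 were intronic (31.6%, against 46.5%). At promoters lay 3 (7.89%, against 11.4%), and at the ends of transcripts 3 (7.89%, against 1.85%). The median distance to the TSS was 6546 bp, compared with 13906 bp for all WT peaks.

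Fewer of these peaks were listed in LKO liver (17 against 38), and the LKO list was shorter as a whole (12495 against 20040). Nearly all of the LKO member peaks had a WT counterpart. With an overlap of 1 bp or more, 16 of the 38 WT peaks also had an LKO peak (42.1%, 95% Wilson interval 27.9 to 57.8%), and the share over all WT peaks was 49.5%. From the other side, 16 of the 17 LKO peaks had a WT peak (94.1%, interval 73.0 to 99.0%), against 79.4% of all LKO peaks. With the full lists the interval of each share includes its background, and no interval was computed for the settings that follow. The WT list was then cut to its strongest peaks, as many as the LKO list held. In that setting 44.0% of the WT and 64.7% of the LKO member peaks were shared, against 68.3% of all peaks. The order of the LKO share and its background turned, and the WT share was further below its background. Among peaks at or above the median strength of their list, 8 of 22 WT member peaks were shared (36.4%, against 53.0%). The intervals cover counting error over peaks only, and peaks of the same gene share a locus. Of the 22 WT peaks without an LKO counterpart, 1 had the centre of an LKO peak within 1 kb, and the median distance to the nearest LKO peak was 17126 bp.

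**Figure D1:**
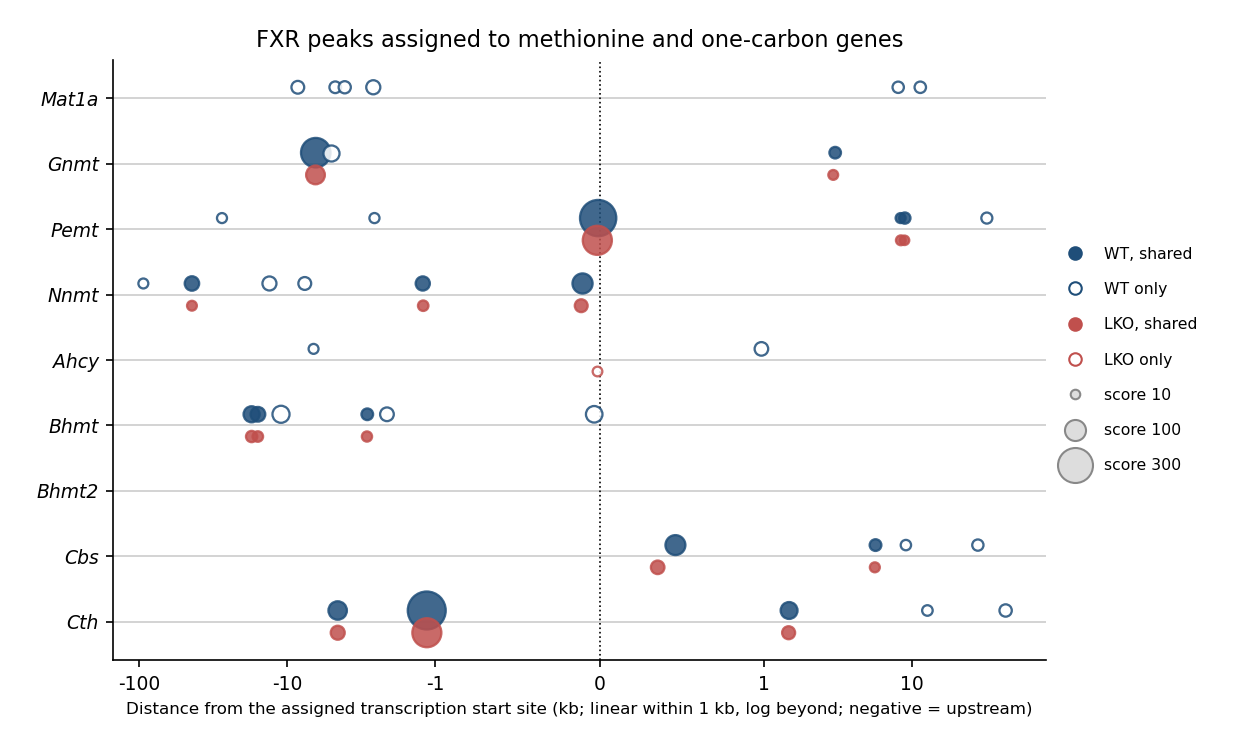
Position of each assigned FXR peak, in kb from the TSS assigned to that peak (linear within 1 kb, log scale beyond, upstream negative), with the WT list in blue above each line and the LKO list in red below. The Pemt peaks refer to different start sites of the gene, so distances between them cannot be read from the axis. Circle area grows linearly with the Peak Score above a fixed minimum size, filled circles are shared peaks and open circles are in 1 list only. The largest circles are the Cth peak 1144 bp upstream and the Pemt promoter peak, and Mat1a has 6 WT peaks and no LKO peak.

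The values are on separate scales. The Peak Score is the tag number of a peak when both ChIP libraries are pooled and set to 10000000 tags in total. The deposited log2 tags give a value for each library, and strength below is the percentile of the mean of the 2 ChIP libraries within the same list. For a peak in both lists, relative log2 tags are the deposited value minus the median of all 9918 shared peaks in the same library, and SDs are over 2 libraries. The size of a difference between genotypes depends on this centring.

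Mat1a encodes the liver methionine adenosyltransferase that makes SAM, and it was the only member with WT peaks and no LKO peak. Its 6 WT peaks lay from 8506 bp upstream to 11346 bp downstream of the TSS, with 4 upstream and 2 in introns, and none lay within 1 kb of the TSS. The strongest, 2629 bp upstream at chr14:41102299-41102509, had deposited log2 tags of 4.98 and 5.19 in the 2 ChIP libraries and -0.35 in the input. The libraries were close to each other at this peak. Strength over the 6 peaks ran from percentile 27.6 to 67.5 and the Peak Score from 19.6 to 37.4, so none was among the strong peaks of the WT list. The nearest LKO peak was 35085 to 54937 bp away from them.

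Among the methyltransferases, Gnmt encodes glycine N-methyltransferase, which uses excess SAM in the liver. Its strongest peak was 6435 bp upstream, at the transcript end of the neighbouring gene Cnpy3, with a Peak Score of 209.5 in WT and 76.7 in LKO. Its relative log2 tags were 2.52 and 2.30 in WT and 1.98 and 2.14 in LKO. Both LKO libraries lay below both WT libraries, by 0.36 on the mean, and the peak still ranked at percentile 98.5 in WT and 95.6 in LKO. Its WT input value of 1.89 was above the 95th percentile of inputs in that list, which is 1.85, while its WT ChIP libraries stood at 7.53 and 7.84 before centring. A second Gnmt peak, 5093 bp upstream, was listed in WT only, with deposited log2 tags of 5.45 and 6.12, a WT input of 1.81 and percentile 83.3, and the nearest LKO peak centre was 1367 bp away. The third, 3018 bp downstream of the TSS at the transcript end of Pex6, was shared and weak, and its libraries overlapped between genotypes, at -0.72 and -1.39 in WT and -0.48 and -1.13 in LKO.

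Pemt encodes the enzyme that methylates phosphatidylethanolamine to phosphatidylcholine. A peak at the promoter of an annotated Pemt transcript, centred 10 bp upstream of its TSS, was the second strongest member peak in WT. The peak was the strongest in LKO, and ranked at percentile 99.8 in both lists. It lies inside the gene, whose upstream end is at chr11:60046561. Its relative log2 tags were 3.01 and 3.49 in WT and 3.31 and 3.63 in LKO, so the genotypes overlapped (3.25 ± 0.34 and 3.47 ± 0.23). The Peak Score was 324.1 in WT and 203.8 in LKO. An intronic peak 8356 bp downstream of the TSS stood at -1.66 and -2.05 in WT and -0.96 and -0.37 in LKO. Both LKO libraries were above both WT libraries there, by 1.19, the largest difference among the shared member peaks, while its Peak Score was 12.3 in WT and 11.4 in LKO. That ratio of 0.927, below 1 like those of most shared peaks, was at percentile 93.9 of all shared peaks, and the difference at percentile 96.1. The peak itself was weak, at percentile 7.42 of the WT list and 27.7 of the LKO list. That peak was estimated at 3.35 tags in WT replicate 2. The neighbouring intronic peak at 8923 bp had -1.19 and -0.78 in WT and -0.98 and -1.23 in LKO, which overlap. The other 3 Pemt peaks were in the WT list only, at percentiles 16.3 to 27.1.

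Nnmt encodes nicotinamide N-methyltransferase, which consumes SAM to methylate nicotinamide. Its promoter peak, 105 bp upstream at chr9:48605123-48605333, had relative log2 tags of 1.34 and 0.37 in WT and 0.68 and 0.43 in LKO. The WT libraries differed from each other by more than the genotypes did, and both LKO values lay between them. The Peak Score was 90.4 in WT and 29.1 in LKO, and the LKO input at this peak was high, at 2.98 against a 95th percentile of 2.49. The peak 1217 bp upstream also overlapped between genotypes, with 0.02 and -0.61 in WT and -0.49 and -0.16 in LKO. The shared peak 44190 bp upstream was lower in both LKO libraries, at -0.73 and -0.79, than in WT, at 0.14 and -0.60, a difference of -0.53. That difference was -0.16 without WT replicate 1 and -0.90 without WT replicate 2. The part of the high promoter input in these values was not tested. Of the other 3 Nnmt peaks, all in the WT list only, the farthest lay 94116 bp upstream inside an intron of Zbtb16.

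Ahcy encodes the hydrolase that splits S-adenosylhomocysteine, and it was the only member that had peaks in both lists and shared none. In WT a peak in the first intron, 983 bp downstream of the TSS, had deposited log2 tags of 4.79 and 5.40 and percentile 67.7, and a weaker one 6657 bp upstream had 2.94 and 4.47. In LKO a peak at the promoter, centred 18 bp upstream of the TSS at chr2:155074413-155074617, had 4.31 and 3.71. It ranked at percentile 15.2 of the LKO list, with a Peak Score of 10.5 where the lowest score in that list was 8.88. The LKO peak and the intronic WT peak were 1001 bp apart.

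Bhmt encodes betaine-homocysteine methyltransferase, which remethylates homocysteine from betaine, and its locus held the strongest member peaks that the LKO list lacked. The promoter peak, 34 bp upstream of the TSS, had deposited log2 tags of 5.45 and 6.40 in WT, an input of 1.11 and percentile 85.5. A peak 11050 bp upstream had 5.71 and 6.52, an input of 1.82 and percentile 88.2. Neither was in the LKO list, where the nearest peak centres were 2866 and 4800 bp away. Their Peak Scores in WT were 56.6 and 61.2, above those of several member peaks that were shared. The WT peak 2125 bp upstream, at percentile 69.5, was also without a counterpart, and the centre of an LKO peak lay 775 bp from it.

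The other 3 Bhmt peaks were shared. The one 17461 bp upstream, which lies at the transcript end of the paralogue Bhmt2, had relative log2 tags of 0.45 and 0.48 in WT and 0.18 and 0.03 in LKO, a difference of -0.37. The one 15823 bp upstream had 0.18 and -0.12 in WT and -0.29 and -0.45 in LKO, a difference of -0.40, which was -0.25 without WT replicate 1. In both, the LKO libraries lay below the WT libraries. The weak peak 2886 bp upstream went the other way, with -0.95 and -1.67 in WT and -0.25 and -0.78 in LKO, a difference of 0.79, which was 0.44 without WT replicate 2. Its Peak Score was 13.4 in LKO and 21.5 in WT, a ratio below 1 that was at percentile 72.8 of all shared peaks. Bhmt2, whose product methylates homocysteine from S-methylmethionine, was assigned no peak in either list. Counted by position instead, 3 WT and 2 LKO peaks were centred within 10 kb of Bhmt2, all of them assigned to another gene.

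Of the transsulfuration genes, Cbs encodes cystathionine beta-synthase, the entry step from homocysteine. Its strongest peak lay in the first intron, 460 bp downstream of the TSS in a CpG island, with relative log2 tags of 1.22 and 1.05 in WT and 0.81 and 0.75 in LKO. Both LKO libraries were below both WT libraries, by 0.36. The inputs were high in both lists, at 2.31 in WT and 2.99 in LKO, and the part of the input in the difference was not tested. The centres of the WT and LKO peaks were 108 bp apart, the widest gap among the shared member peaks. The shared peak 5653 bp downstream overlapped between genotypes, with -0.88 and -1.66 in WT and -0.48 and -1.06 in LKO. The other 2 Cbs peaks were in WT only and lay in LTR elements.

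Cth encodes cystathionine gamma-lyase, which releases cysteine, and it held the strongest member peak in WT. That peak, 1144 bp upstream of the TSS and annotated to a SINE repeat, was the 33rd strongest of the 20040 WT peaks and the 31st of the 12495 LKO peaks. Its relative log2 tags were 3.21 and 3.45 in WT and 3.46 and 3.47 in LKO. Both LKO libraries were above both WT libraries by 0.14, a difference that was 0.016 without WT replicate 1 and 0.26 without WT replicate 2. It was -0.19 on the values as deposited and -0.34 with each library centred on all peaks of its table, scales on which the median of all shared peaks was -0.30 and -0.45, so the peak was above that median on each. The Peak Score was 356.1 in WT and 202.4 in LKO. A peak 4575 bp upstream (1.04 and 0.84 in WT, 0.74 and 1.19 in LKO) overlapped between genotypes. So did a peak in the first intron, 1473 bp downstream (0.68 and 0.64 in WT, 0.75 and 0.59 in LKO). These 3 Cth peaks stood at percentiles of 99.8, 89.5 and 85.6 in WT and 99.8, 84.2 and 78.7 in LKO. The WT input at the peak 4575 bp upstream was 2.30, above the 95th percentile, against 0.12 in LKO. The other 2 Cth peaks, 12676 and 42814 bp downstream, were in WT only.

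**Figure D2:**
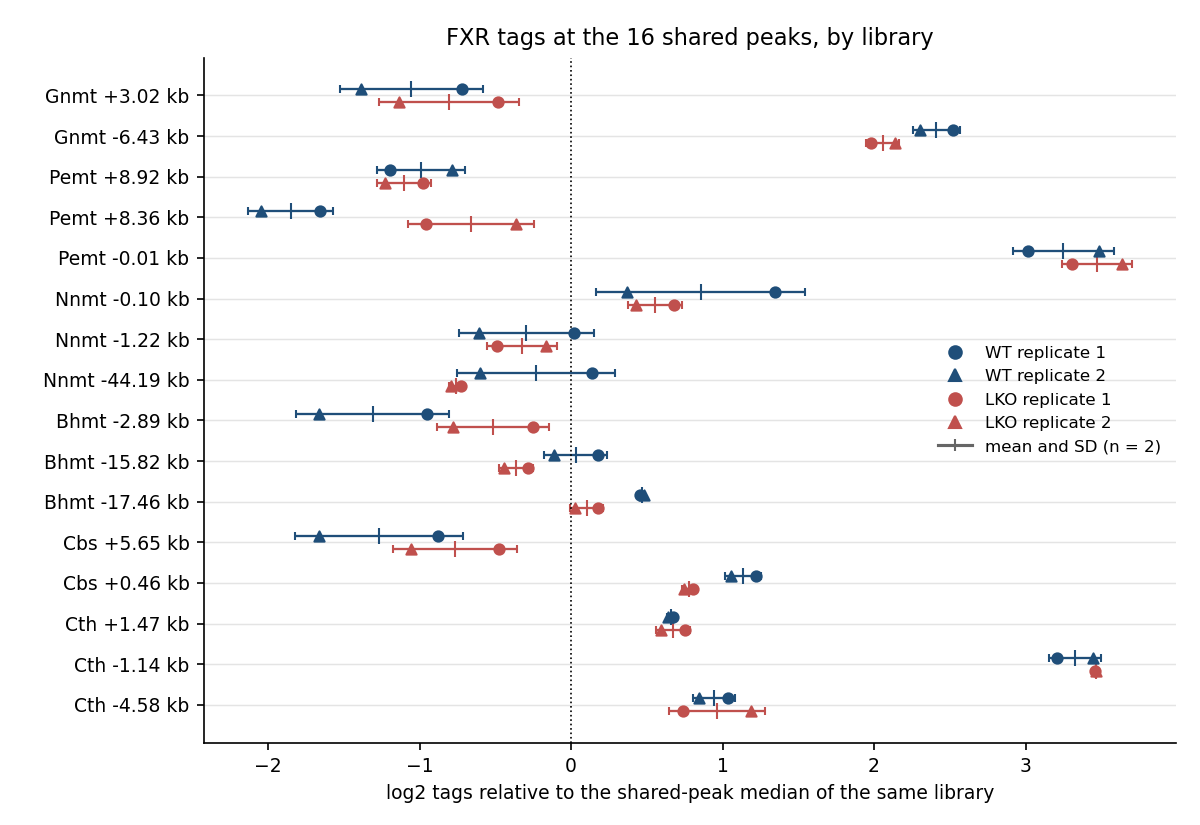
Relative log2 tags (deposited value minus the median over all shared peaks of that library) of the 16 shared peaks, with circles for replicate 1, triangles for replicate 2, and bars for mean and SD of 2 libraries, labelled by gene and distance to the TSS. Both LKO libraries lie above both WT libraries at 3 peaks and below at 5. The 3 higher ones have a lower Peak Score in LKO, as 95.7% of all shared peaks do, and that of Cth is also lower on the deposited values, on which the median of all shared peaks is -0.30.

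Over the 16 shared member peaks the median difference in relative log2 tags, LKO minus WT, was -0.0078, with a range of -0.53 to 1.19. Over all shared peaks it was 0.026. Both LKO libraries were above both WT libraries at 3 member peaks, against a background of 29.8% of all shared peaks, and below at 5, against 25.2%. The libraries overlapped at the other 8. These shares, 18.8% above and 31.2% below, are on 16 peaks and lie near the background. Leaving out WT replicate 1 gave 7 above and 6 below, and leaving out WT replicate 2 gave 4 and 7. Leaving out LKO replicate 1 gave 5 and 7, and leaving out LKO replicate 2 gave 6 and 6. With 1 library fewer, non-overlap is easier to meet, and both counts rose each time. Background shares were not computed for these settings. The median SD between replicates of a shared member peak was 0.27. The 5 lower peaks, at Gnmt, Bhmt, Cbs and Nnmt, differed by -0.36 to -0.53, which put them at percentiles 13.7 to 22.9 of all shared peaks, within the usual range of differences.

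The Peak Score was lower in LKO at all 16 shared member peaks, and it was lower at 95.7% of all shared peaks. The ratio of LKO to WT scores had a median of 0.498, from 0.284 at the Nnmt peak 44190 bp upstream to 0.927 at the Pemt peak 8356 bp downstream, and the median over all shared peaks was 0.507. Against that common shift the Cth and Pemt peaks of highest score had ratios of 0.568 and 0.629, and those of Gnmt, Cbs and Nnmt had 0.366, 0.380 and 0.322. The quartiles over all shared peaks were 0.406 and 0.638, so the Cth and Pemt ratios lay between them. Those of Gnmt, Cbs and Nnmt were at percentiles 15.5, 18.5 and 7.8 of all shared peaks.

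**Figure D3:**
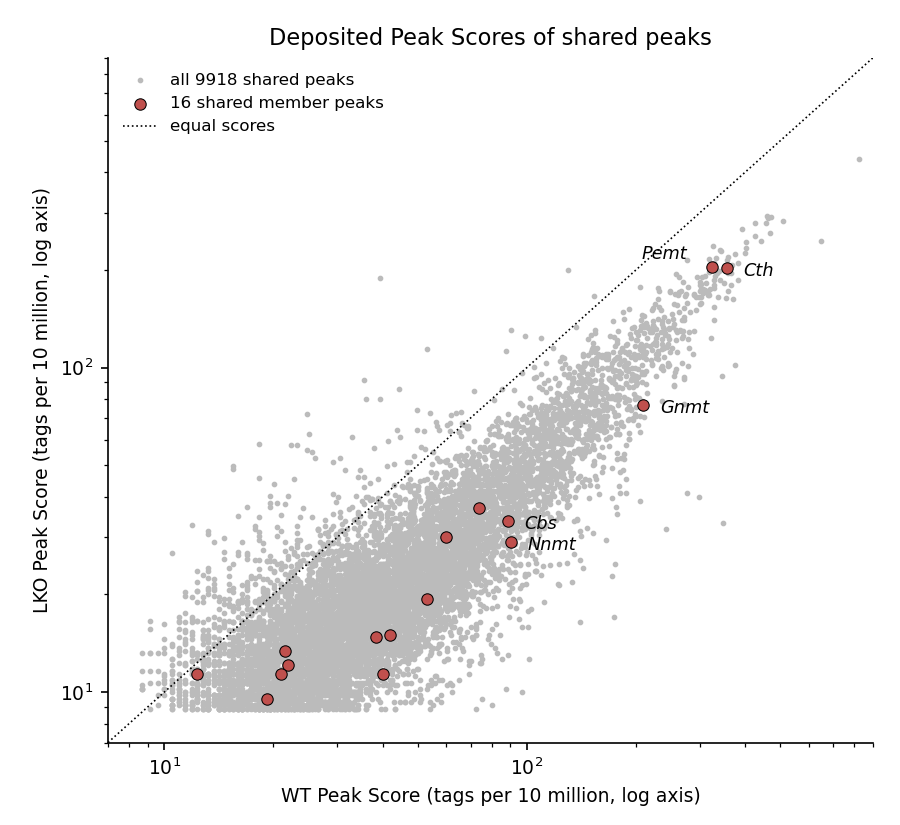
Peak Score in LKO against WT (tags per 10000000, log axes) for all 9918 shared peaks in grey and the 16 shared member peaks in red, with a dotted line at equal scores. All 16 member peaks lie below the line, as do 95.7% of the grey points, and the strongest member peaks are those of Cth, Pemt and Gnmt.

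The member peaks spanned most of the range of strength. In the WT list their median percentile was 61.2, and 22 of 38 were at or above the median of the list. In the LKO list their median was 44.1, and 8 of 17 were at or above the list's own. Cth and Pemt supplied the 2 member peaks in the top 1% of either list. In the WT list as a whole, the share of peaks with an LKO counterpart rose from 11.1% in the weakest 10% of peaks to 95.3% in the strongest 10%. All 4 member peaks of that strongest class were shared. In the next class of 10%, where 90.3% of WT peaks were shared, 4 of 7 member peaks were, and the others were the 2 strong Bhmt peaks and the Gnmt peak 5093 bp upstream. That grouping was chosen after the values were seen, and it carries no test.

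**Figure D4:**
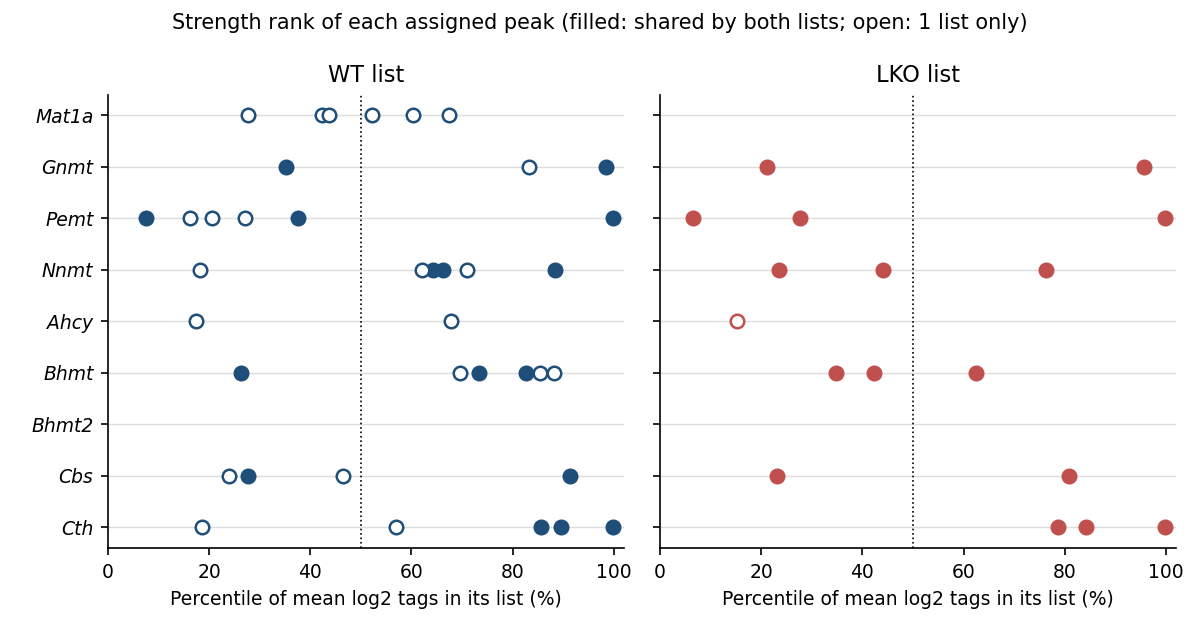
Strength of each member peak as the percentile of its mean log2 tags within the WT list (left, blue) and the LKO list (right, red), by gene, with filled circles for shared peaks and open circles for peaks in 1 list only. Cth and Pemt reach percentile 99.8 in both lists, and the Mat1a peaks, all open, lie between 27.6 and 67.5 in WT.

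Matches to the classical FXR site were few at these genes. IR1 was searched as AGGTCANTGACCT on both strands within 100 bp of the peak centre, and up to 2 of the 12 scored bases could differ. It was present in 1 of 38 WT member peaks (2.63%, 95% Wilson interval 0.466 to 13.5%), against 11.8% of all WT peaks and 0.893% of windows 2 kb away. In the LKO list it was in 0 of 17, which allows up to 18.4%, against 16.2% of all LKO peaks and 0.872% of windows 2 kb away. The interval of the WT share includes the background, so a shortage at these genes was not shown with these few peaks.

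The match was in the Bhmt promoter peak, at chr13:93637818-93637830, with the letters AGGCCTCTGACCT shown in capitals in the sequence above. Counted from 1 at the 5′ end of the IR1 letters, with the IR1 base first, it differed by T4C and A6T. The Pemt promoter peak came closest at AAGTCATGGGCCT, 3 mismatches away (G2A, T8G and A10G), and the upstream Gnmt peak at GGGTCAGTCACCG, also 3 (A1G, G9C and T13G). The best windows in the Cth and Cbs peaks had 4 mismatches. The 2 strongest member peaks therefore had no IR1 by this definition. With 3 mismatches allowed, 12 of 38 WT and 7 of 17 LKO member peaks had a match, near the shares of all peaks (36.0% and 43.6%). No match says only that these letters are not in the window.

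Other nuclear receptor and STAT letters were searched the same way, and these motifs were chosen after the data were seen. The direct repeat DR1, AGGTCANAGGTCA with up to 2 mismatches, was in 6 of 38 WT member peaks (interval 7.44 to 30.4%) against 12.8% of all WT peaks, and in 2 of 17 LKO member peaks against 11.9%. The 6 were at Ahcy, Pemt, Bhmt with 2 and Nnmt with 2, and the Bhmt and Nnmt promoters were among them. The exact hexamer AGGTCA, which is part of both repeats and so overlaps them, was in 19 of 38 against 40.3%, and in 9 of 17 against 41.3%. The letters TTCNNNGAA, the core bound by STAT factors and by BCL6, were in 1 of 38 against 6.56% and in 1 of 17 against 6.39%, both at TTCCAGGAA of the Nnmt promoter, chr9:48605143-48605151. In windows 2 kb away TTCNNNGAA was found at 6.13 and 6.26%, so its share in all FXR peaks was close to that of flanking DNA.

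The genes were also set beside the wider pathway. Of 58 further genes of folate, glycine, choline, sulfur amino acid, polyamine and methionine salvage metabolism, 40 had a WT peak, 33 an LKO peak, 32 both and 17 neither. Among all protein-coding genes, active in liver or not, 34.5% had a WT peak and 26.3% an LKO peak. Their 111 WT peaks were shared at 55.0% (interval 45.7 to 63.9%) and their 72 LKO peaks at 84.7% (74.7 to 91.2%), each nearer to the list as a whole than the shares of the 9 members. Over their 61 shared peaks, both LKO libraries were above at 14, against 29.8% of all shared peaks, and below at 22, against 25.2%. The median difference was -0.16, against 0.026 over all shared peaks, and it was not tested.

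The strongest WT peaks of the wider genes were at Etnk2, an ethanolamine kinase of phospholipid synthesis, at Ahcyl2, a relative of Ahcy, at Gclm, the modifier subunit of the enzyme that starts glutathione synthesis, at Sardh, the sarcosine dehydrogenase, and at Chka, a choline kinase. Their percentiles in WT were 99.2 for Etnk2, 97.6 for Ahcyl2 and Gclm, 97.5 for Sardh and 96.6 for Chka, all below the strongest peaks of Cth and Pemt. In LKO the best peaks of these genes stood at percentiles 98.5, 92.8, 96.6, 97.5 and 97.1. Sardh, which demethylates the sarcosine that Gnmt makes, had 8 WT and 7 LKO peaks. Among genes with peaks in 1 list, Ahcyl1 (percentile 69.3), Gamt (56.2) and Gcsh (51.2) had WT peaks and no LKO peak.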

How the data were processed

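FXR ChIP-seq of liver comprised 4 ChIP and 2 input libraries. Per the labels and the study's methods, the authors aligned single-end reads to mm10 with Bowtie, keeping unique alignments, and called peaks with HOMER on pooled replicates against input (Bowtie 1.2 and HOMER 4.10 in the submitters' processing notes). Per the file headers, peaks were filtered with DESeq2 against input, at an adjusted p under 0.05 and a log2 fold change over 1. The deposited tag columns are log2 values, taken as regularized log2 tags, fitted over the 3 libraries of each table and so shrunken at low values, although the header calls them tag counts. The deposited Peak Score is a signal, in tags per 10000000. The authors' fold changes and p-values of ChIP against input were not used.

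Peaks were paired at an overlap of 1 bp. All member peaks were counted, and full values were given for the strongest peak of each member, shared peaks and IR1 matches. Wider genes were named when among the 5 strongest with peaks in both lists, or, up to 5, with peaks in 1 list. Some of these are not reported here. Motifs were searched in 201-base windows of GRCm38.p6 (RefSeq), whose coordinates are those of mm10. Tags were estimated from log2 values and library totals. The members and lists were chosen with earlier results of these data known. Other overlaps, centrings, strength limits, mismatch limits and omitted replicates were tried. No test between genotypes was run. Code was tested on simulated data (Python 3.11.15 with pysam 0.24.0, scipy 1.17.1, numpy 2.4.6, pandas 2.3.3 and matplotlib 3.10.9).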

Additional observations from a re-analysis of the deposited data

How the results depend on the processing

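No paired analysis was possible because the labels do not pair WT with LKO libraries. The genotypes sit in separately normalized tables, and no value was tested between them. Of 174 values recomputed under an alternative, 118 stayed within the limit set for each, 51 moved and 5 were counted as changed in sign. A change of sign was counted only for peaks whose libraries did not overlap between genotypes. Elsewhere, a value that changed sign was counted by its size, as moved or within the limit. At or above the median strength of their list, 22 WT and 8 LKO member peaks remained, of which 36.4% and 100% were shared, against 53.0% and 85.0% of all such peaks. With 10 or more estimated tags in both ChIP libraries, 20 WT member peaks remained. With lists of the same length, 44.0% of the WT and 64.7% of the LKO member peaks were shared, against 68.3% of all peaks in each. IR1 with 1 mismatch gave 0 WT matches, and with 3 mismatches 12 WT and 7 LKO.

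The median difference of the shared member peaks was -0.34 on deposited values, -0.48 when centred on all peaks and -1.01 by Peak Score, and these scales moved the median of all shared peaks to -0.30, -0.45 and -0.98. It ran from -0.0822 to 0.0235 when 1 replicate was left out. Peaks with both LKO libraries above numbered 1 when centred on all peaks, and 4 to 7 with 1 replicate left out. Those below numbered 8 on deposited values, 11 when centred on all peaks, and 6 to 7 with 1 replicate left out. Background shares over all shared peaks were not computed for these settings, so the counts are not a result about the members. Among peaks whose libraries did not overlap between genotypes, the sign changed for the Cth peak 1144 bp upstream. It was -0.19 on deposited values, -0.34 centred on all peaks and -0.82 by Peak Score. By Peak Score the sign also changed for the Pemt peak at 8356 bp (-0.11) and the Bhmt peak 2886 bp upstream (-0.68). Each of these values was above the median of all shared peaks on the same scale. Signs also changed at peaks whose libraries overlapped, such as the Pemt promoter peak, from 0.22 to -0.11 on deposited values. Depth of WT replicate 2 limits every WT value. In it 18 of 38 member peaks were estimated under 10 tags, as were 11176 of all 20040 WT peaks.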
